A study of Drosophila melanogaster with 3 samples.

Results

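The genes described here are 10 Drosophila melanogaster regulators of the cell cycle and of the licensing of DNA replication: Dp, E2f1, E2f2, Rbf, Rbf2, dup, dpa, CycE, stg and Cdk1. They are 10 of 18164 annotated genes, of which 13945 are protein-coding. They were chosen by name, with the peaks at several of them already known, so the occupancy values below describe these genes and no test was made on them. Every peak summit in a gene body or within 2000 bp of it was taken.

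Binding of CG8089 was mapped by ChIP-seq, in which DNA bound by a protein is precipitated and sequenced. The protein was expressed as a C-terminal GFP fusion from a transgene and was precipitated with an antibody against GFP. The chromatin came from whole embryos of mixed sex aged 0 to 24 hours, and was sonicated to 200 to 800 bp. There was 1 group of 3 biological replicates, numbered 2, 3 and 4, of 1 transgenic line, so no condition was compared with another. Embryos of all these ages and tissues were mixed. A weak peak in many cells and a strong peak in few cells cannot be told apart, and peak lists hold no expression values against which the makeup of the embryos could be checked.

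The E2F proteins bind DNA together with their partner Dp at genes needed for entry into S phase. The retinoblastoma proteins Rbf and Rbf2 act on E2F proteins to block these genes. Cyclin E with its kinase releases that block. Before S phase, the loading factor Cdt1, which dup encodes, helps to place the helicase of which the dpa product Mcm4 is a subunit on replication origins. At the end of the cycle the phosphatase String, the fly Cdc25, removes inhibitory phosphates from Cdk1 and so starts mitosis. In the early fly embryo the transcription of stg times the divisions that follow the syncytial cycles.

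The authors gave each peak a signal value, a measure of strength on a scale that none of the sources used here gives, and rank 1 is the highest signal of a list. Their reproducible list held the 3233 peaks of highest signal of the pooled list of 30000, with signals from 115.4 to 4668 and a median of 175. The pooled list and the replicate lists are labelled as peaks and background, so a weak entry need not be a binding site. In reach of the 10 genes lay 67 pooled summits, and 13 of them were reproducible. These 13 ranked from 603 to 2813 in the pooled list. Their median signal was 155.

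Of the 10 genes, 8 had a reproducible summit in reach, against 26.8% of all protein-coding genes, and 5 had more than 1, against 6.96%. At their own start sites, taken as 500 bp to either side, 6 of the 10 had a reproducible summit (Dp, Rbf2, dup, dpa, stg and Cdk1), against 14.6% of protein-coding genes. When peaks had to be among the strongest 3233 of both other replicates, leaving out replicate 4 left 5 of the 10 genes with a summit in reach, without E2f1, stg and Cdk1, and 17.8% of all protein-coding genes. The genes were chosen on these calls, so nothing follows from the difference. E2f1 and E2f2 had reproducible summits in reach that lay at the starts of other genes or in an intron. Rbf and CycE had none.

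**Figure D1:**
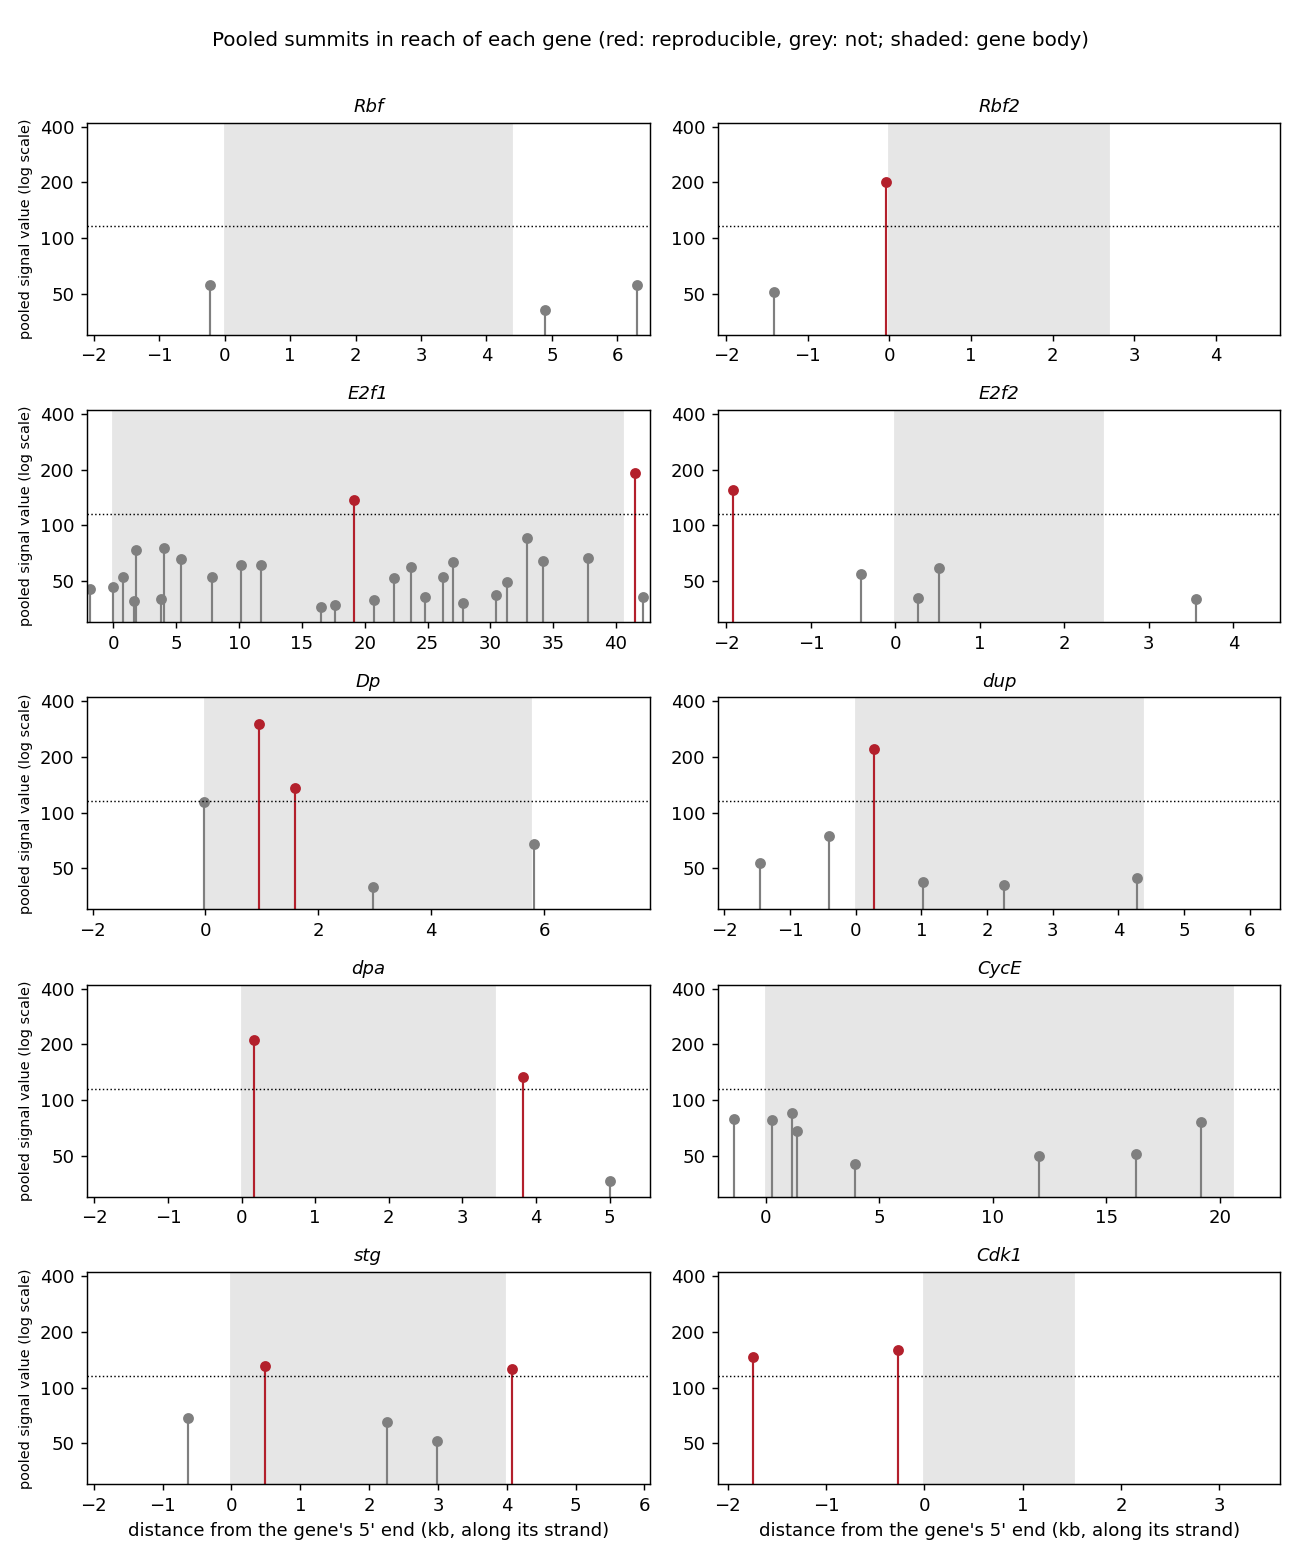
Pooled summits in reach of each of the 10 genes, plotted by distance from the gene's 5' end in kb along its strand (x axis, a scale of its own in each panel) and by the authors' pooled signal value (y axis, log scale). Red summits are in the reproducible list, grey ones are not, the shading is the gene body and the dotted line is the lowest signal of the reproducible list, 115.4; Rbf and CycE have no red summit, and the grey summit at the 5' end of Dp touches the line.

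The retinoblastoma genes differed in occupancy. Rbf2 encodes the second fly member of that family (FBgn0038390, 3R, 15965446 to 15968138, plus strand). Its reproducible peak at 15965206 to 15965601 had its summit 42 bp upstream of the start site and a pooled signal of 200.2 (rank 1282). The replicate signals there were 86.1, 69.6 and 46.5 in replicates 2, 3 and 4, at ranks 830, 1610 and 2174. All 3 replicates therefore held it among their own strongest 3233 peaks. Rbf2 shares its upstream region with CG32856, which is transcribed the other way from a start 95 bp away, and the summit lay between the start sites, 53 bp from that of CG32856. The 151 bases centred on the summit are shown because they hold both starts and the element TATCGATA, the DNA replication-related element (DRE) found at many replication and proliferation genes of the fly. The element is in capitals, begins 1 bp beyond the summit and ends 34 bp before the Rbf2 start. The Rbf2 start is base 118 and the CG32856 start base 23 (Release 6, plus strand, chr3R:15965329-15965479).
Rbf2 and CG32856: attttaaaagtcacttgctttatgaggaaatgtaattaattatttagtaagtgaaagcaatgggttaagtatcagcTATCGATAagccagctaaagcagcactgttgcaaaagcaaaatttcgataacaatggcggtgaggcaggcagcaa

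Rbf, the main retinoblastoma gene (FBgn0015799, X, 797090 to 801479, minus strand), had 3 pooled summits in reach and none was reproducible. The summit nearest to its start lay 218 bp upstream, in the 3' UTR of the neighbouring CG13359, with a pooled signal of 55.7 (rank 12434). In replicates 2, 3 and 4 the signal there was 25.7, 14.5 and 19.4, at ranks 8222, 27601 and 16013. The strongest summit in reach had a pooled signal of 55.9 and lay in the coding sequence of CG16989. No reproducible summit lay nearer to the gene body than 24288 bp, and that one was nearest to the start of fz3, 2776 bp away.

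E2f1 encodes the activating E2F and is the longest of the 10 genes (FBgn0011766, 3R, 21620304 to 21660871, minus strand, 5 annotated start sites). It had 28 pooled summits in reach, 0.628 per kb, against a median of 0.313 per kb over all protein-coding genes and of 0.236 per kb over the 1298 genes whose reach is at least 20 kb. The pooled list holds background too. The authors' −log10 q-value, higher for surer calls, was at most 1.55 at the E2f1 summits outside the reproducible list. Only 2 of the 28 were reproducible, with 3.81 each, and neither was at an E2f1 start. The stronger, with a pooled signal of 191 (rank 1392), lay beyond the 3' end of E2f1 and 50 bp upstream of the start of InR, the insulin receptor gene. Its signal in replicates 2, 3 and 4 was 64.5, 44.1 and 98.1, at ranks 1366, 4035 and 530, the widest spread of ranks of the 13 summits (7.61-fold). Replicate 3 alone placed it outside its own strongest 3233.

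The other reproducible E2f1 summit was intronic, 3244 bp from the nearest E2f1 start and 3086 bp from that of the long noncoding RNA CR46056. Its pooled signal was 137 (rank 2465), and replicates 2, 3 and 4 gave 29.6, 70.7 and 40.3 at ranks 5521, 1558 and 2852. Replicate 3 was highest here and lowest at the InR start. At the 5 starts of E2f1 itself the strongest pooled summit had a signal of 52.2 (rank 14241), and replicate 2 listed no summit within 500 bp of any of them. Among the 331 protein-coding genes of similar reach (35.7 to 55.5 kb), 51.1% had a reproducible summit in reach. The number of summits in reach differed between the replicates, at 11, 37 and 26 in replicates 2, 3 and 4. The medians over the 1298 long genes lay close together, at 0.238, 0.209 and 0.230 per kb. Unlike at E2f1, replicate 2 was highest there and replicate 3 lowest. Over all protein-coding genes the medians were 0.238, 0.317 and 0.314 per kb, lowest in replicate 2 and highest in replicate 3, as at E2f1.

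The InR window is shown because the strongest reproducible summit in reach of E2f1 belongs to that start by position. The capitals mark ACACTG, a 6-mer already known to be frequent under the reproducible peaks of these data, which here covers the InR start at base 26 (Release 6, plus strand, chr3R:21619296-21619446).
InR: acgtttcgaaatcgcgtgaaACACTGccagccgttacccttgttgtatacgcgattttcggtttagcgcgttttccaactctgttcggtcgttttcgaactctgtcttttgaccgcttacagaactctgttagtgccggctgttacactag

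E2f2 encodes the repressing E2F (FBgn0024371, 2L, 21154293 to 21156749, minus strand). Of its 5 pooled summits, the reproducible one lay 1925 bp upstream of the gene, just inside the limit of 2000 bp. It sat between the starts of Coq3, a gene of coenzyme Q synthesis, and Pld3, which are 236 bp apart and divergent. The summit was 63 bp from the Coq3 start and 173 bp from the Pld3 start. The pooled signal was 155 (rank 1983), and the replicates lay close together, with 47.6, 56.7 and 51.4 in replicates 2, 3 and 4 at ranks 2196, 2474 and 1821. E2f2 forms a divergent pair of its own with Mpp6, with starts 56 bp apart. At that pair the pooled signal was 59.0 (rank 11026, 4 bp from an E2f2 start). The strongest summits within 500 bp of an E2f2 start had signals of 20.1, 31.6 and 24.8 in replicates 2, 3 and 4 at ranks 16750, 7542 and 8841.

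Dp, the shared partner of both E2F proteins, held the strongest summit of the 10 genes (FBgn0011763, 2R, 13222433 to 13228202, plus strand). The peak at 13223175 to 13223570 had a pooled signal of 301 (rank 603) and its summit 218 bp upstream of the second Dp start, within an intron of the longer transcripts. Replicates 2, 3 and 4 gave signals of 96.4, 78.3 and 118 at ranks 675, 1304 and 346. A further reproducible Dp summit lay 435 bp downstream of the same start, 436 bp from the start of the noncoding RNA CR43918. Its pooled signal was 137 (rank 2461), but only replicate 3 had it among its own strongest 3233, with a signal of 70.4 (rank 1573). Replicates 2 and 4 gave 32.2 and 32.1 there, at ranks 4440 and 4616.

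At the first Dp start, which lies 95 bp from a divergent start of Fsn, an F-box protein gene, the pooled summit ranked 3301 with a signal of 114. This was the nearest miss among the 67 summits: the lowest reproducible one, near the 3' end of stg, had 126 (rank 2813). Replicate 3 placed the summit at the first Dp start at rank 1926 with a signal of 64.0. Replicates 2 and 4 placed it at ranks 4171 and 12561, with 33.1 and 21.5.

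The licensing genes dup and dpa each had a strong summit inside a divergent start region. For dup (FBgn0000996, 2R, 15376619 to 15380988, minus strand) the summit lay 94 bp upstream of one of its 2 starts and 16 bp upstream of the start of SRPK, a kinase of splicing factors, which overlaps the 5' end of dup on the opposite strand. The pooled signal was 220.0 (rank 1092). Replicates 2, 3 and 4 gave 73.5, 62.3 and 84.4, at ranks 1105, 2039 and 710. The listed peak, 15380634 to 15380734, was 101 bp wide, where the other 12 were each 396 bp wide. In the 3 replicates the summits lay 17, 23 and 18 bp from the pooled summit, so all of them fell inside the narrow interval.

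For dpa (FBgn0015929, 2R, 7496702 to 7500145, minus strand) the peak at 7499777 to 7500172 had its summit 98 bp from the nearer dpa start, in the 5' UTR of the longer transcript, and 172 bp from the start of didum, a myosin V gene. The outer dpa start and the didum start are 2 bp apart. The pooled signal was 211 (rank 1172), with 89.3, 60.7 and 69.9 in replicates 2, 3 and 4 at ranks 786, 2158 and 1074. A further reproducible summit beyond the 3' end of dpa was 33 bp inside CG1620, and its pooled signal was 133 (rank 2570). Replicates 2 and 3 held it among their own strongest 3233, with 59.5 and 50.3 at ranks 1546 and 3120, and replicate 4 gave 27.8 at rank 6592.

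Cyclin E is encoded by CycE (FBgn0010382, 2L, 15727581 to 15748150, minus strand), and 8 pooled summits lay in reach of it, 4 of them within 500 bp of 1 of its 3 starts. None was reproducible, while 49.5% of the 549 protein-coding genes of similar reach (19.7 to 30.6 kb) had a reproducible summit. The strongest was 367 bp upstream of a CycE start, in an exon of the noncoding RNA CR44974, with a pooled signal of 85.4 (rank 5346). There replicate 2 gave 37.5 (rank 3244), replicate 3 gave 14.4 (rank 27745) and replicate 4 gave 25.5 (rank 8227). Replicate 3 also had a stronger peak that overlapped this one, with 43.5 (rank 4148). Its summit lay outside the pooled peak, 81 bp upstream of the same start. A summit 1375 bp upstream of the gene had a pooled signal of 78.9, and replicate 4 alone had it among its own strongest 3233 (38.0, rank 3220). A summit 293 bp downstream of the outermost CycE start had a pooled signal of 78.2, with 39.8 and 31.2 in replicates 3 and 4 and no summit in replicate 2. The nearest reproducible summit lay 3035 bp outside the gene body, 107 bp from the start of ND-B17, a respiratory chain subunit gene, and had a signal of 156 (rank 1970).

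The mitotic phosphatase gene stg (FBgn0003525, 3R, 29251826 to 29255800, minus strand) had a reproducible peak at 29255113 to 29255508, with its summit 14 bp inside the gene from one of its 2 starts. The pooled signal was 132 (rank 2625). Replicates 3 and 4 gave 72.7 and 51.2 at ranks 1486 and 1829. Replicate 2 listed no summit in the peak, and its nearest lay 1120 bp away, with a signal of 32.2. The weakest entry of the replicate 2 list had a signal of 15.7. A further reproducible summit lay just beyond the 3' end of stg, 1279 bp from the start of SP1029, with a pooled signal of 126 (rank 2813) and 35.0, 52.9 and 30.1 in replicates 2, 3 and 4. Only replicate 3 held that one among its own strongest 3233, at rank 2855.

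Cdk1 encodes the mitotic kinase (FBgn0004106, 2L, 10384739 to 10386262, minus strand). Both pooled summits in its reach were reproducible. That at 10386529 lay between the divergent starts of Cdk1 and mRpS7, a mitochondrial ribosomal protein gene, 267 bp from the Cdk1 start and 133 bp from the mRpS7 start. Its pooled signal was 159.6 (rank 1885), with 65.9, 47.7 and 41.02 in replicates 2, 3 and 4 at ranks 1324, 3458 and 2764. That at 10388008 was 97 bp upstream of the start of da, a helix-loop-helix regulator gene, with a pooled signal of 146 (rank 2204). The replicates lay close together at this site, with 43.5, 49.4 and 40.2 in replicates 2, 3 and 4, and replicate 3 had it at rank 3234, 1 place below its strongest 3233.

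Sequence around 3 of these summits is given because it holds, or lacks, words of cell cycle promoters. E2F words were TTTGGCGC, TTTCCCGC, TTTCGCGC and TTTGCCGC, and the word TTTGAA stands for the cell cycle homology region (CHR), all searched on both strands. Capitals mark these words in 151 bases centred on the summit (Release 6, plus strand). The windows are chr3R:29255236-29255386 for the stg start, which is base 90, chr3R:29251655-29251805 beyond the stg 3' end and chr2L:10386454-10386604 between Cdk1 and mRpS7.
stg start: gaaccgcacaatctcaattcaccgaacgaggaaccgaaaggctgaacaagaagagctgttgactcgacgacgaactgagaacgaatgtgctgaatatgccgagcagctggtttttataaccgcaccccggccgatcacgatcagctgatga
stg 3' end: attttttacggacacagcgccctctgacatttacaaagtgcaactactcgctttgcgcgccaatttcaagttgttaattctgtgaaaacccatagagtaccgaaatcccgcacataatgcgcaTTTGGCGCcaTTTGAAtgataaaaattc
Cdk1 and mRpS7: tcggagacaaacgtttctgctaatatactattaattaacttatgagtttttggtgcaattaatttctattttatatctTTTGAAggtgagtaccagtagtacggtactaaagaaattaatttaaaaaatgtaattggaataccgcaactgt

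The 151 bases at the stg start held no such word, although a CHR word lay 73 bp from that summit, across the edge of the window. The window at the 3' end held an E2F word and a CHR word close together. In the Cdk1 window the CHR word began 3 bp beyond the summit. Over the 201 bases centred on each summit, 4 of the 13 held an E2F word, against 3.19% of all 3233 reproducible summits. These 4 were the dup start, the dpa start (with 2 E2F words), the CG1620 start beside dpa and the stg 3' end. The E2F word at dup ended 15 bp from the dup start, and one of those at dpa covered a dpa start. None of the 6 reproducible summits in reach of the E2F, Dp and retinoblastoma genes held an E2F word. With 3.19% of all reproducible summits holding one, none in 6 is near the full share, and nothing follows from it.

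The CHR word lay in 5 of the 13 windows, against 28.5% of all reproducible ones, and ACACTG in 4, against 20.9%. The DRE lay in 1, that of Rbf2, against 3.8%, and the GAGA word GAGAGAG in none, against 4.73%. Median GC content was 37.8% over the 13 windows and 37.3% over all reproducible ones. Single windows ran from 27.4% at Cdk1 to 51.7% at the InR start. With 13 windows, differences of 1 or 2 windows between words cannot be read, and a word is not evidence of binding by the factor it is named for. The genes and the words were chosen with earlier results of these data known. Nothing follows from the differences in word shares, that of the E2F words included.

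By position, many of the summits belonged to neighbours. Of the 13, 11 lay within 500 bp of some start site, against 52.6% of all reproducible summits, and 7 within 500 bp of a start of the gene in question. The nearest start of any gene was that of a neighbour at 8 of the 13 and that of the named gene at 5. The median distance to the nearest start was 97.0 bp over the 13 and 416 bp over all reproducible summits. Divergent start regions, with both starts within 500 bp of the summit and at most 1000 bp apart, held 5 of the 13 (Rbf2, dup, dpa, Cdk1 and the Coq3 and Pld3 pair near E2f2), against 17.9% of all reproducible summits. At such pairs the peak lists do not show which gene the binding concerns. The 13 had to lie in or within 2000 bp of genes chosen on these calls, and the full list did not. Nothing follows from these comparisons with the full list.

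**Figure D2:**
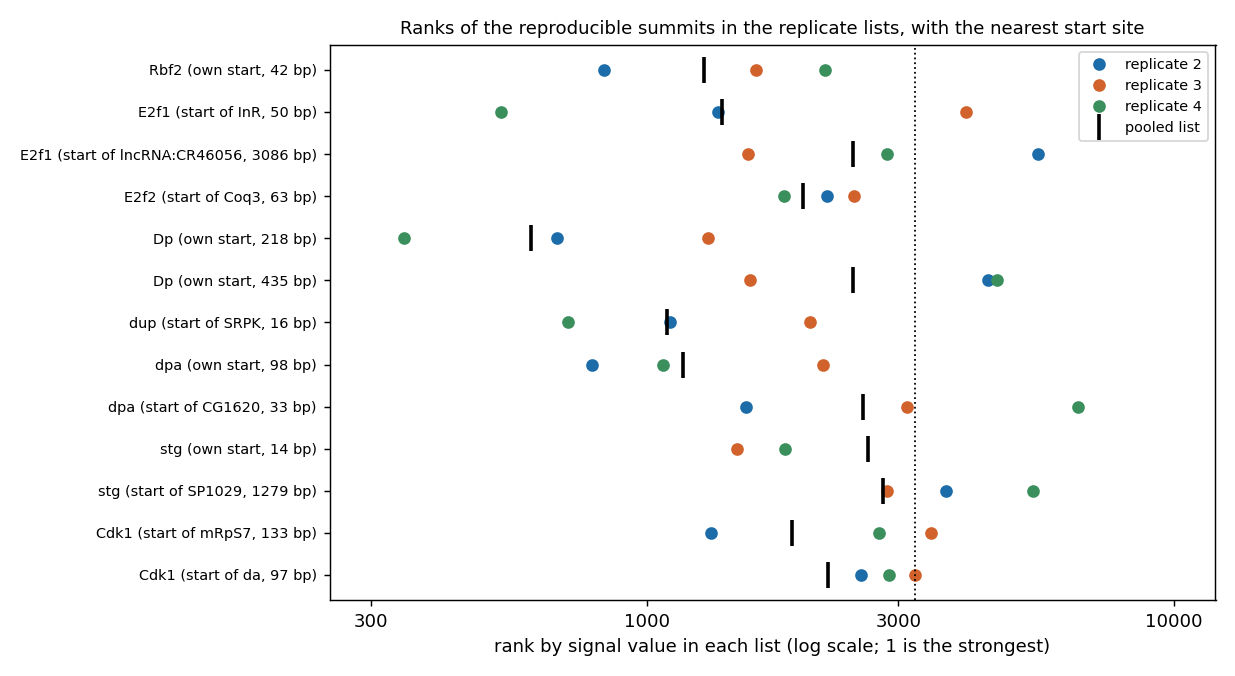
Rank of each of the 13 reproducible summits in the pooled list (black bars) and in replicates 2, 3 and 4 (points), on a log axis where 1 is the strongest; the row names give the gene and the nearest start site with its distance, and the dotted line is rank 3233. Dp (218 bp), dup, dpa (98 bp), Rbf2 and the E2f2 summit at Coq3 lie left of the line in every replicate, and stg (14 bp) has no point for replicate 2.

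Ranks at the 13 summits differed between the replicates. Of the 13 summits, 5 were among the own strongest 3233 of all 3 replicates, against 51.9% of all reproducible peaks, and against 49.4% of the 2211 that ranked between 603 and 2813. Another 6 were among them in 2 replicates and 2 in only 1. The highest replicate rank was a median of 2.75 times the lowest over the 13. It was 2.39 times over the reproducible peaks ranked between 603 and 2813. Over the 3218 reproducible peaks found in at least 2 replicates it was 2.37 times. Replicate 3 gave the weakest rank at 7 of the 13 summits, replicate 4 at 5 and replicate 2 at 1, and replicate 2 lacked the stg start summit. The pooled list was made from these replicates, so its ranks are no independent check on them.

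At the genes' own starts the replicate signals are given as a description, since the pooled list that chose the reproducible summits was made from the same replicates. The strongest summit within 500 bp of an own start had signals of 41.02 to 118 over all replicates at Rbf2, Dp, dup, dpa and Cdk1, and of 72.7 and 51.2 at stg in the replicates that listed one. At Rbf, E2f1 and E2f2 it had signals of 14.5 to 32.5. CycE had 37.5, 43.5 and 31.2 in replicates 2, 3 and 4. Signals were called separately in each replicate, so values are best set against each other within a replicate. Within each replicate, Dp, dup, dpa, Rbf2 and Cdk1 were all above CycE, and CycE was above E2f2 and Rbf.

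**Figure D3:**
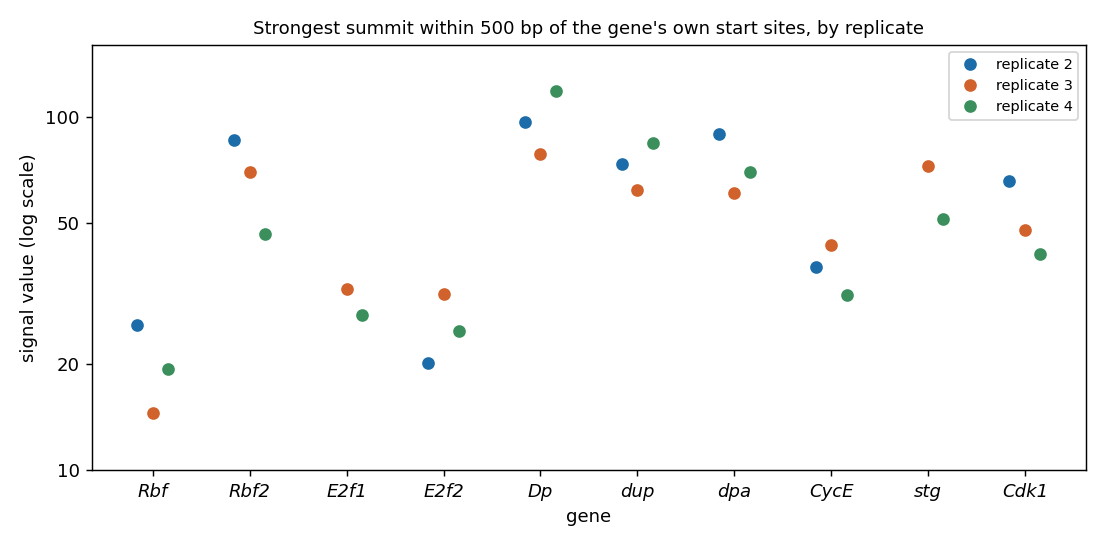
Signal value of the strongest summit within 500 bp of any start site of each gene (y axis, log scale) in replicates 2, 3 and 4 (points); a missing point means that the replicate's list held no summit there, as for E2f1 and stg in replicate 2. Dp reaches 118 in replicate 4 and Rbf falls to 14.5 in replicate 3.

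The wider pathway was then described with 82 genes in 6 lists by role, of which the 10 are members. Of the 82, 18 (22.0%) had a reproducible summit at a start, against 14.6% of all protein-coding genes. In the single replicates' strongest 3233 peaks the share was 24.0% ± 0.704 (SD, n = 3), against 14.2% ± 0.618 for all protein-coding genes. Both pathway shares include the 10 genes, which were chosen on these calls. They were 5 of 20, 5 of 19 and 6 of 20 genes called in replicates 2, 3 and 4, so the excess is partly built in. Without the 10 genes, 12 of 72 had a reproducible start summit (16.7%), close to the share of all genes. Of the 82, 10 had one without replicate 2 (12.2%, against 9.08% of all protein-coding genes) and 9 without replicate 4 (10.98%, against 8.83%).

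Among the E2F, retinoblastoma and dREAM genes (the complex of E2F, retinoblastoma and Myb proteins), Dp and Rbf2 were the only 2 of 11. None of mip120, mip130, mip40, lin-52, Caf1-55 and Myb had a reproducible start summit. Of 16 origin licensing genes 3 did: dup, dpa and Mcm5, another helicase subunit, whose summit (signal 132, 154 bp from its start) was nearer to Art1. The origin recognition genes Orc1 to Orc6, Cdc6, geminin and the other helicase subunit genes had none. Firing and replisome genes were at 4 of 22. They were RnrS, a ribonucleotide reductase subunit (signal 183), Psf1, a subunit of the GINS complex (153, nearest start Sac1), and the kinase Cdc7 with its partner chif (132 each, 26 and 23 bp from the start). Without replicate 2 only Cdc7 of these 4 was left, and without replicate 4 none.

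No G1/S gene (0 of 7: CycE, CycD, Cdk2, Cdk4, dap, ago and fzr) had one, against 14.6% of all protein-coding genes. All 7 had a weaker pooled summit at a start, where 51.7% of all protein-coding genes had a pooled summit of any strength. With 7 genes, nothing follows from these counts. The mitotic list had 4 of 17: Cdk1, stg, the kinase polo (signal 157, 59 bp from the start) and the kinase aurA (153, 16 bp). Replicates 2, 3 and 4 placed the polo summit at ranks 3021, 2330 and 1776 and the aurA summit at 1382, 2417 and 2583. Without replicate 4, aurA and polo were the 2 left. Cyclin genes CycA, CycB and CycB3 had none.

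The checkpoint list had a start summit at 5 of 9 genes, against 14.6% of all protein-coding genes. Without replicate 2 it had 2 (Bub3 and p53), against 9.08% of all protein-coding genes. Without replicate 4 it had 3 (Bub3, p53 and tefu), against 8.83%. The role lists were chosen with earlier results of these data known, so nothing follows from these counts. Bub3, a spindle checkpoint protein gene, had a signal of 248 (rank 881), 117 bp from its start and 113 bp from that of Cap-D2, a condensin gene. The damage response regulator p53 had 233 (rank 980), 34 bp from its start. The kinase genes tefu, lok and mei-41 had 182, 170 and 154, and the nearest starts at tefu and lok were those of Hsc70-4 and barr. Replicates 2, 3 and 4 placed Bub3 at ranks 664, 1052 and 1226 and p53 at 853, 783 and 2810. They differed more at lok (857, 7701 and 1804), mei-41 (1201, 5860 and 1371) and tefu (653, 1699 and 5437).

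**Figure D4:**
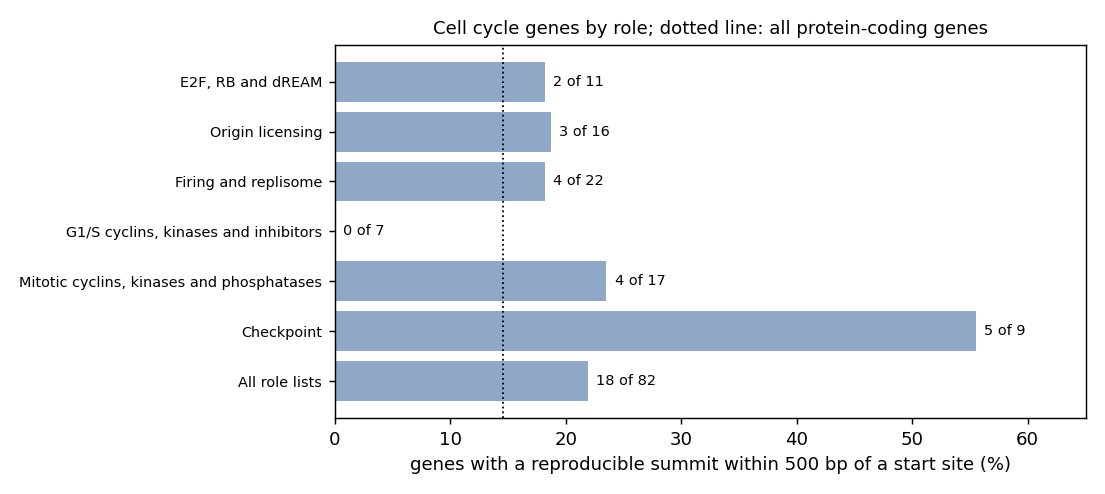
Share of the genes of each role list with a reproducible summit within 500 bp of a start site (bars, in percent, from 0), with the number of genes beside each bar; the dotted line is the share of all protein-coding genes, 14.6%. The checkpoint list stands at 5 of 9 and the G1/S list at 0 of 7.

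Pooled summits of any strength were common at these genes, in a list that also holds background. One lay at a start of 63 of the 82 genes (76.8%), against 51.7% of all protein-coding genes. The 63 include the 18 with a reproducible start summit and the 10 genes chosen on these calls. Nothing follows from the difference. For the 10 genes the density of pooled summits ran from 0.299 per kb at Rbf2 to 0.774 per kb at E2f2, with a median of 0.457. Rbf2, with the lowest density, held a strong start summit, while CycE, next lowest at 0.326 per kb, held no reproducible one.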

How the data were processed

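Peak lists on build dm6 were used; the dm3 lists were not used here. Per the deposited file descriptions, the authors called peaks on each replicate and on the pooled replicates, each with 1 further file taken to be a control, and thresholded the pooled list by the irreproducible discovery rate (IDR). The sources used here do not give the caller, its version or the IDR threshold, and control libraries were not analysed here. The deposited lists hold a signal value per peak, used for ranks, and −log10 of a q-value, not used for ranks. Read depth is unknown, and no interval was derived from it. All 3233 reproducible peaks were found in the pooled list, at ranks 1 to 3233.

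Summits were set against Ensembl release 115 (BDGP6.54, transposable elements left out) and the Release 6 sequence from RefSeq, with positions counted from 1. Each replicate list held 30000 entries, labelled like the pooled list as peaks and background. A replicate matched a pooled peak when its summit lay inside, the strongest being kept. Python 3.11.15, pandas 2.3.3 and numpy 2.4.6 were used, and the gene counting was tested on simulated data. The genes, role lists, words and named genes were chosen with earlier results of these data known. Named genes were the 10, the genes starting at their reproducible summits, and up to 6 genes of highest signal per role list; others named were chosen after their values were seen. RPA1 and mad2 were matched through RefSeq synonyms. Alternatives were other reaches, windows, match rules and pair gaps, the strongest 1616 peaks, and leaving out each replicate.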

Additional observations from a re-analysis of the deposited data

How the results depend on the processing

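Leaving out a replicate kept the reproducible peaks that held a strong summit of both others, 1892 to 2119 peaks. The number of the 10 genes with a reproducible summit in reach was then 5 to 7 instead of 8. It was 5 without replicate 4, where E2f1, stg and Cdk1 dropped out. Of all protein-coding genes 17.8% to 20.3% then had one, instead of 26.8%. The number with a start summit was 4 to 5 instead of 6, and the share of all genes 8.83% to 10.4% instead of 14.6%; stg dropped out without replicate 3, Cdk1 without replicate 2 and both without replicate 4. The pathway count was 9 to 14 instead of 18, with 10 (12.2%, against 9.08% of all genes) without replicate 2 and 9 (10.98%, against 8.83%) without replicate 4. The median replicate rank of the 13 summits, 2196, became 2009 to 2335. In the strongest 1616 peaks 5 genes had a summit in reach (16.2% of all genes) and 8 pathway genes a start summit (9.76%, against 8.05%), and with any pooled summit 63 did. With no reach beyond the gene body, 5 genes had a reproducible summit (9.42% of all genes) and 44 pooled summits remained of 67. Within 50 bp of the summit, 2 of the 13 held an E2F word instead of 4. The share of all reproducible summits at that distance is not given here. Fewer peaks or bases lower such counts by construction, and more peaks raise them. The other windows, reaches, pair gaps and match rules moved no count by more than 1.5 times. No paired analysis was possible because there was 1 group.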

Other observations

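The E2F words were not commoner under strong peaks over the whole genome. They lay within 100 bp of 3.19% of the 3233 reproducible summits and of 4.40% of the 26767 other pooled summits. The DRE ran the other way, at 3.8% of reproducible and 1.28% of other pooled summits, as did the CHR word, at 28.5% and 16.3%. The sets were not matched for distance to start sites or base composition. Among the 1701 reproducible summits within 500 bp of a start site, 3.35% held an E2F word and 7.00% a DRE.

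Replicates ranked summits at Dp differently. Replicate 3 had 3 of its own strongest 3233 summits in reach of Dp, where replicates 2 and 4 had 1 each. In all, replicates 2, 3 and 4 had 9, 12 and 11 such summits in reach of the 10 genes, and 44, 87 and 69 summits of any strength. E2f1 alone held 11, 37 and 26 of those of any strength. Over all protein-coding genes the density was 0.255, 0.304 and 0.292 summits per kb, in the same order of replicates.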
